A study of Mus musculus with 12 samples.

Results

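The miR-465 family is a group of mouse microRNAs in the Fx-mir cluster of the X chromosome. All 5 mature forms were taken, by name, from the table of normalized values that covers every sample: miR-465a-5p, miR-465b-5p, miR-465c-5p, miR-465b-3p and miR-465c-3p. They are 5 of the 616 mature microRNAs listed. The rows of miR-465b-3p and miR-465c-3p hold the same value in every library, so the 5 names stand for 4 separate measurements. A further row, miR-465a-3p, is listed in the table. It is described only where the 3p arm is summed or where its test result differs from that of miR-465b-3p.

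The study sequenced small RNA of primordial germ cells (PGCs), from which oocytes and spermatogonia descend, and of somatic cells (SCs) of the same gonads, in CD1 mice with no genetic change or treatment named. Embryos of both sexes were taken on day 11.5 (E11.5), day 12.5 (E12.5) and day 13.5 (E13.5), which gives 12 libraries, 1 for each combination of cell type, sex and day. Each library pools groups of about 80 gonads, sexed by PCR and freed of the mesonephros, and the germ cells were drawn out with beads against CD15. The labels' protocols give a germ cell enrichment of 93 to 96% and a somatic purity of over 90%. No combination has a second library, so the p-values below measure the spread between these libraries after cell type, stage and sex are fitted, and that spread may be technical. The tests also borrow spread from all microRNAs tested, as set out under the processing.

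The libraries held 166804 to 1768825 microRNA reads, and the smallest 2 were the PGC libraries at E12.5. No microRNA is listed with fewer than 5 reads, so a value of 0 means under 5 reads, or under 2.83 to 29.98 reads per 1000000 microRNA reads (RPM) depending on the library. The germ cell label was checked on the 3p arms of 6 microRNAs of the miR-290 cluster, which is characteristic of pluripotent and germ cells. Their sum was 40200 to 66336 RPM in 5 PGC libraries and 178 to 3594 RPM in the SC libraries. The female E11.5 PGC library stood apart at 1249 RPM. One of the 6, miR-290a-3p, was listed at 0 in it, as in all SC libraries. Its 7 gonadal somatic and mesenchymal markers summed to 84094 RPM, near the 87869 to 114434 RPM of the SC libraries. Its markers thus go against its label. Most results that rest on it are given with and without it, and others only with it or as ranges over the libraries left out.

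MicroRNAs are cut from hairpin transcripts, and either arm (5p or 3p) can be kept to guide the silencing of messenger RNAs. Target choice rests mainly on the seed, bases 2 to 8 from the 5′ end. The Fx-mir cluster lies between Slitrk2, which encodes a neuronal transmembrane protein, and Fmr1, which encodes the RNA-binding protein lost in fragile X syndrome. The cluster evolves quickly, and its microRNAs are known chiefly from the testis and male germ line. The mature sequences follow because the identity of the 3p arms decides how their rows can be read, and because the 5p arms differ outside the seed; the seed is in capitals, and the sequences are RefSeq's on GRCm38.p6, minus strand.
miR-465a-5p: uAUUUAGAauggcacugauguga
miR-465b-5p: uAUUUAGAauggugcugaucug
miR-465c-5p: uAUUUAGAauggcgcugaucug
miR-465b-3p: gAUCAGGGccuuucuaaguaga
miR-465c-3p: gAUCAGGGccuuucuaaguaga

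The 5p arms share the seed AUUUAGA and the 3p arms the seed AUCAGGG. Of the 616 listed names, 526 were matched to RefSeq, and none outside the family carries either seed. Counted from 1 at the 5′ end, miR-465b-5p and miR-465c-5p differ only by U13C. From miR-465a-5p to miR-465b-5p the changes are C13U, A14G and G20C, and from miR-465a-5p to miR-465c-5p they are A14G and G20C. The 5p arms are therefore different molecules with one seed, whereas the 3p arms of a, b and c are one molecule.

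RefSeq places 6 hairpins in tandem at chrX:66822656-66839125, a span of 16470 bp that 0 RefSeq genes other than microRNAs overlap, so they lie outside annotated exons, introns and UTRs. In the order of transcription they are Mir465 (the a form, chrX:66839052-66839125), Mir465b-2 (chrX:66835764-66835842), Mir465c-2 (chrX:66832517-66832597), Mir465b-1 (chrX:66829202-66829280), Mir465c-1 (chrX:66825955-66826035) and Mir465d (chrX:66822656-66822713). Their starts are 3247 to 3315 bp apart. The mature arms of miR-465d are not analysed here. The 2 hairpins of the b form are identical in sequence, as are the 2 of the c form, and 1 hairpin of each form is given with its mature arms in capitals.
Mir465: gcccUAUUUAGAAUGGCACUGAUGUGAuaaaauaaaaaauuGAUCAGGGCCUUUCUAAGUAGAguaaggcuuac
Mir465b-1: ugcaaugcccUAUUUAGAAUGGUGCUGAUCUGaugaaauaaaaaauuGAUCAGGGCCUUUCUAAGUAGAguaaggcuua
Mir465c-1: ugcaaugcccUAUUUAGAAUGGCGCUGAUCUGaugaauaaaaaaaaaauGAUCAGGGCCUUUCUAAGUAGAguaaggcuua

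The 3p rows followed the number of hairpins. In the female E13.5 PGC library the 3p reads summed to 358, listed as 72 for miR-465a-3p and 143 each for miR-465b-3p and miR-465c-3p. In the male E13.5 PGC library the sum was 563, listed as 113, 225 and 225. In all 6 libraries with 3p reads, each row lay within 0.4 reads of 1 part (a) or 2 parts (b and c) in 5 of the sum. These are the shares of 1, 2 and 2 hairpins, so the 3p rows carry 1 measurement of the shared arm and give no levels of the separate forms.

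In PGCs the 5p arms went from few or no reads at E11.5 to 555 to 2888 RPM at E13.5. miR-465c-5p was at 0 and 48.5 RPM in the female and male E11.5 libraries, at 444 and 424 RPM a day later, and at 1959 and 2888 RPM by E13.5. miR-465b-5p was at 0 and 55.4 RPM at E11.5, at 180 and 299 RPM a day later, and at 1669 and 2608 RPM by E13.5. miR-465a-5p was at 0 and 11.6 RPM at E11.5, at 0 and 54.3 RPM a day later, and at 555 and 676 RPM by E13.5. For each 5p arm both E13.5 libraries were above every earlier PGC library, and miR-465a-5p was the lowest of the 3 at every stage where it was seen. The share of all microRNAs with such an order by stage was not counted.

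The shared 3p arm, given as the miR-465b-3p row, was at 0 in both E11.5 PGC libraries, at 156 RPM in the female and 86.9 RPM in the male library at E12.5, and at 332 and 574 RPM at E13.5. Its order by stage was that of the 5p arms, with no overlap between the stages, and how many of all microRNAs had such an order was not counted. The row holds 2 parts in 5 of the arm's reads, so at E12.5 the arm stands on 65 reads in the female and 40 in the male library, listed as 26 and 16. The plotted interval is that of the listed reads. Intervals in the plot of levels cover counting error only, since the reads carry no molecular identifiers that are named in the sources used here.

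**Figure D1:**
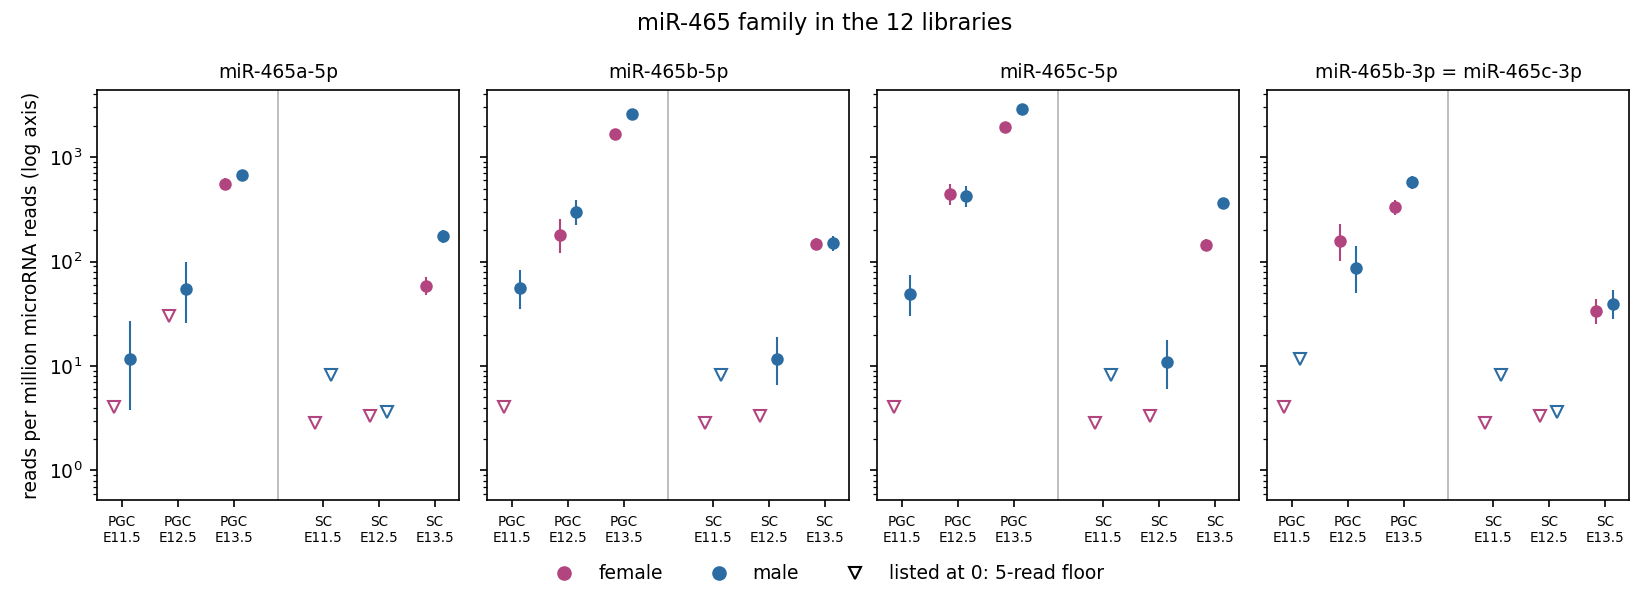
Level of each measurement in RPM on a log axis, by cell type and embryonic day, with female and male libraries as separate points, exact 95% binomial intervals as bars, and open triangles at the 5-read floor where a library lists 0. Every measurement is highest in the 2 PGC libraries at E13.5, and in SCs only miR-465b-5p and miR-465c-5p have a value above 0 before E13.5.

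In SCs the family was nearly absent before E13.5. All 4 measurements were at 0 in both E11.5 libraries and in the female E12.5 library. The male E12.5 SC library held 16 reads of miR-465b-5p (11.6 RPM) and 15 of miR-465c-5p (10.9 RPM) and none of the others. At E13.5 miR-465c-5p was at 145 RPM in the female and 366 RPM in the male library, and miR-465b-5p at 148 and 150 RPM. At the same day miR-465a-5p was at 58.5 and 175 RPM and miR-465b-3p at 33.7 and 39.5 RPM. In RPM the 2 SC libraries at E13.5 were thus above all 4 earlier SC libraries for each measurement and below both PGC libraries of that day. Scaled by the authors' size factors, miR-465a-5p was at 296 in the male SC library, above the 216 and 244 of the PGC libraries. The male SC library of that day had the lowest size factor of all, 0.61, at 1038570 reads. The share of all microRNAs with these orders was not counted.

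Whether the germ cell fraction held more of the family than the somatic fraction was tested with limma on log2(deposited value + 1), each PGC library paired with the SC library of its sex and day. Differences are log2 values ± SE, and a difference passed at an adjusted p under 0.05 over 513 microRNAs. The deposited values are scaled by the authors' size factors. The same fit on RPM, called equal totals, stands beside it, because the choice moves the median of all tested microRNAs from -2.57 to -0.74 in this comparison. The size factors did not follow depth. The female E12.5 PGC library, with the fewest reads (166804), had a factor of 1.58, the highest of all. The female E11.5 SC library, with the most (1768825), had 0.82, so differences in depth remain on that scale. Of the 4 measurements, 3 were higher in PGCs on both scales, where 7.02% of all microRNAs tested passed as higher with the size factors and 13.5% at equal totals. miR-465c-5p was higher by 2.40 ± 0.75 (adjusted p = 0.00663, higher in 5 of 6 pairs with 1 tie at 0), and by 4.39 ± 0.97 at equal totals. miR-465b-5p was higher by 2.27 ± 0.72 (adjusted p = 0.00715, 5 of 6 pairs) and by 4.25 ± 0.89 at equal totals.

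For the shared 3p arm (miR-465b-3p) the difference was 1.82 ± 0.78 (adjusted p = 0.0373, 4 of 6 pairs with 2 ties at 0) and 3.47 ± 1.08 at equal totals. The miR-465a-3p row of the same arm did not pass with the size factors (1.52 ± 0.78, limma adjusted p = 0.0737). It passed at equal totals (3.15 ± 1.00, limma adjusted p = 0.0324), so the arm's call with the size factors depends on the row used. For miR-465a-5p it was 1.1 ± 0.75 (adjusted p = 0.169, 3 of 6 pairs higher and 1 lower) and 2.43 ± 0.91 at equal totals (adjusted p = 0.0532). By limma voom on recovered reads miR-465a-5p passed too (2.92, adjusted p = 0.00505). Without the female E11.5 PGC library the same 3 passed with the size factors and 4 of 4 at equal totals, where 2 to 4 passed over all libraries left out in turn. The differences with the size factors were then 2.88 for miR-465c-5p, 2.72 for miR-465b-5p and 2.18 for miR-465b-3p. With the size factors the call for miR-465b-3p was lost (adjusted p 0.0598 to 0.157) without any 1 of the 8 libraries of E12.5 and E13.5, whereas miR-465b-5p and miR-465c-5p passed whichever library was left out. None of the 4 passed with the pairs ignored, when miR-465c-5p had an adjusted p of 0.249. In bulk samples such as these, fewer cells of a type and less RNA per cell cannot be told apart.

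Stage was tested within each cell type, with sex as a term. The filter asked for a mean deposited value of at least 5 over all 12 libraries. miR-465a-5p and miR-465b-3p reached it only through the E13.5 libraries. Their rises to E13.5, in either cell type, are thus those of rows let in by the stage where they are high. From E11.5 to E13.5 in PGCs, all 4 measurements rose on both scales, where 7.8% of all microRNAs rose with the size factors and 7.41% at equal totals. miR-465c-5p rose by 7.68 ± 1.05 (adjusted p = 1.53e-07) and miR-465b-5p by 7.40 ± 1.08 (adjusted p = 4.25e-07). The shared 3p arm (miR-465b-3p) rose by 7.36 ± 1.18 and miR-465a-5p by 6.65 ± 1.18, against a median of -0.99 over all microRNAs tested. At equal totals the rises were 8.40, 8.12, 8.77 and 7.44 in the same order, with adjusted p from 0.00136 to 0.00768. Both sexes rose in each case. Without the female E13.5 PGC library 2 of 4 passed at equal totals.

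Since the E11.5 values include zeros, these fitted differences depend on the added 1 and are no bound. In males, where the 5p arms were above 0 at E11.5, the level in RPM rose 59.5-fold for miR-465c-5p, 47.0-fold for miR-465b-5p and 58.5-fold for miR-465a-5p, the last from 5 reads. In females miR-465c-5p was at least 478.5-fold higher at E13.5, taking the E11.5 library at its floor of 5 reads. That bound rests on the library that stood apart. Without it all 4 still passed with the size factors, with 5.78 for miR-465c-5p (adjusted p = 0.0389), 5.62 for miR-465b-5p (adjusted p = 0.0492), 7.45 for miR-465b-3p and 6.29 for miR-465a-5p.

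The somatic markers moved with stage in the PGC libraries. Their sum was 58050 and 84094 RPM at E11.5, 10745 and 18849 RPM a day later, and 9206 and 29587 RPM by E13.5. The muscle list, miR-1a-3p, miR-133a-3p and miR-206-3p, summed to 913 and 1229 RPM at E11.5 and was at 0 in both E12.5 PGC libraries and in the male one at E13.5. The single liver marker, miR-122-5p, was at 2015 to 4280 RPM at E11.5 and at 0 in both E13.5 libraries. Erythroid markers went from 707 to 1533 RPM at E11.5 to 73.9 to 174 RPM at E13.5, and endothelial markers from 27782 to 51442 RPM to 6751 to 11230 RPM. In the family's own direction, the 3 kidney or mesonephric markers were at 1262 to 1712 RPM at E11.5 and 2598 to 3551 RPM at E13.5. The neural pair was at 981 to 1901 RPM and then 3416 to 3430 RPM, all of it miR-9-5p, since miR-124-3p was at 0 in every PGC library. The part of these markers in the family's rise was not tested. Set against the germ markers of the same library, the family made 0 and 2.87 reads per 1000 germ-marker reads at E11.5 (female and male), 17.1 and 15.3 a day later, and 87.2 and 115 by E13.5. In the male libraries the germ-marker sum was 40200 RPM at E11.5 and 66336 RPM at E13.5, while the family sum of all 6 rows went from 116 to 7607 RPM.

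**Figure D2:**
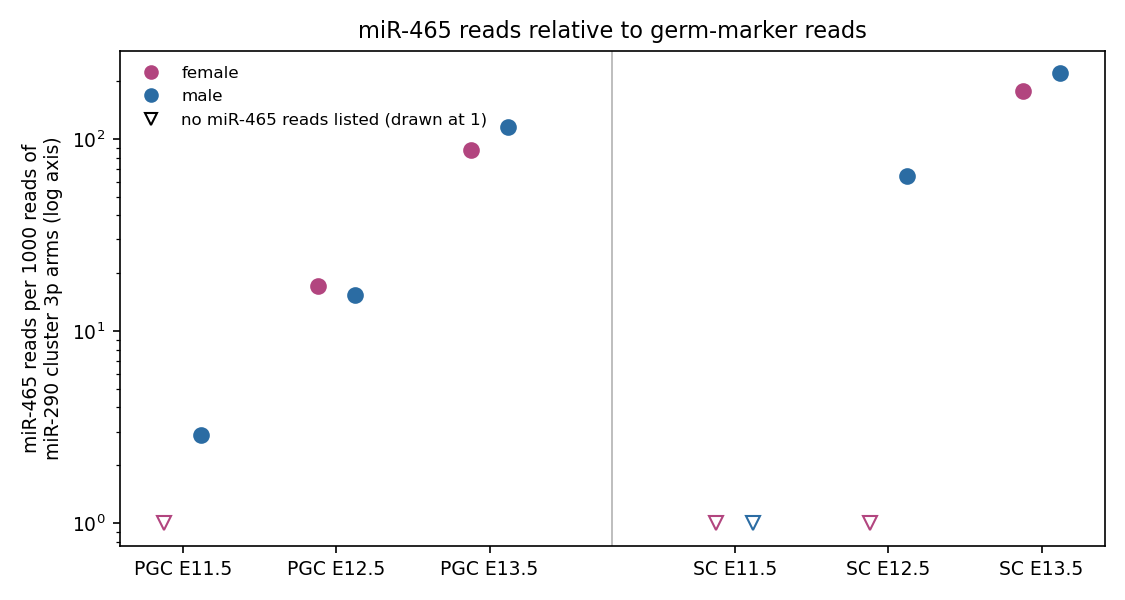
Reads of the family (all 6 rows) per 1000 reads of the 6 miR-290 cluster 3p arms, on a log axis, by cell type and embryonic day; open triangles at 1 mark libraries with no family reads. The ratio is 87.2 and 115 in PGCs and 179 and 220 in SCs at E13.5.

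The steps from day to day rested on single libraries. From E11.5 to E12.5 in PGCs 3 of 4 measurements rose on both scales, against 1.56% of all microRNAs with the size factors and 7.41% at equal totals. miR-465b-3p rose by 3.96 ± 1.18, miR-465c-5p by 3.66 ± 1.05 and miR-465b-5p by 2.69 ± 1.08. For miR-465a-5p the difference was 0.39 ± 1.18 (adjusted p = 0.789). With the size factors 1 of 4 passed without the female E11.5 PGC library, miR-465b-3p, and 0 without the female E12.5 PGC library. At equal totals 1 passed without either of them. The call for miR-465b-5p was also lost without the male E12.5, female E13.5 or male E13.5 PGC library or the male E11.5 SC library (adjusted p 0.0512 to 0.0842).

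From E12.5 to E13.5 in PGCs all 4 rose with the size factors, but so did 31.6% of all microRNAs, whose median rose by 1.39. miR-465a-5p rose by 6.27 ± 1.18, miR-465b-5p by 4.71 ± 1.08, miR-465c-5p by 4.02 ± 1.05 and miR-465b-3p by 3.41 ± 1.18. At equal totals, where 9.75% passed as higher and the median was 0.01, only miR-465a-5p passed (6.37 ± 1.28, adjusted p = 0.0222), and it was at 0 in the female library at E12.5, the shallowest of all. That call was lost at equal totals without the female E12.5 or female E13.5 PGC library or any 1 of the 6 SC libraries, and voom passed 0. The count with the size factors fell to 0 without the female E12.5 or the female E13.5 PGC library, and to 1 without the male E12.5 one.

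**Figure D3:**
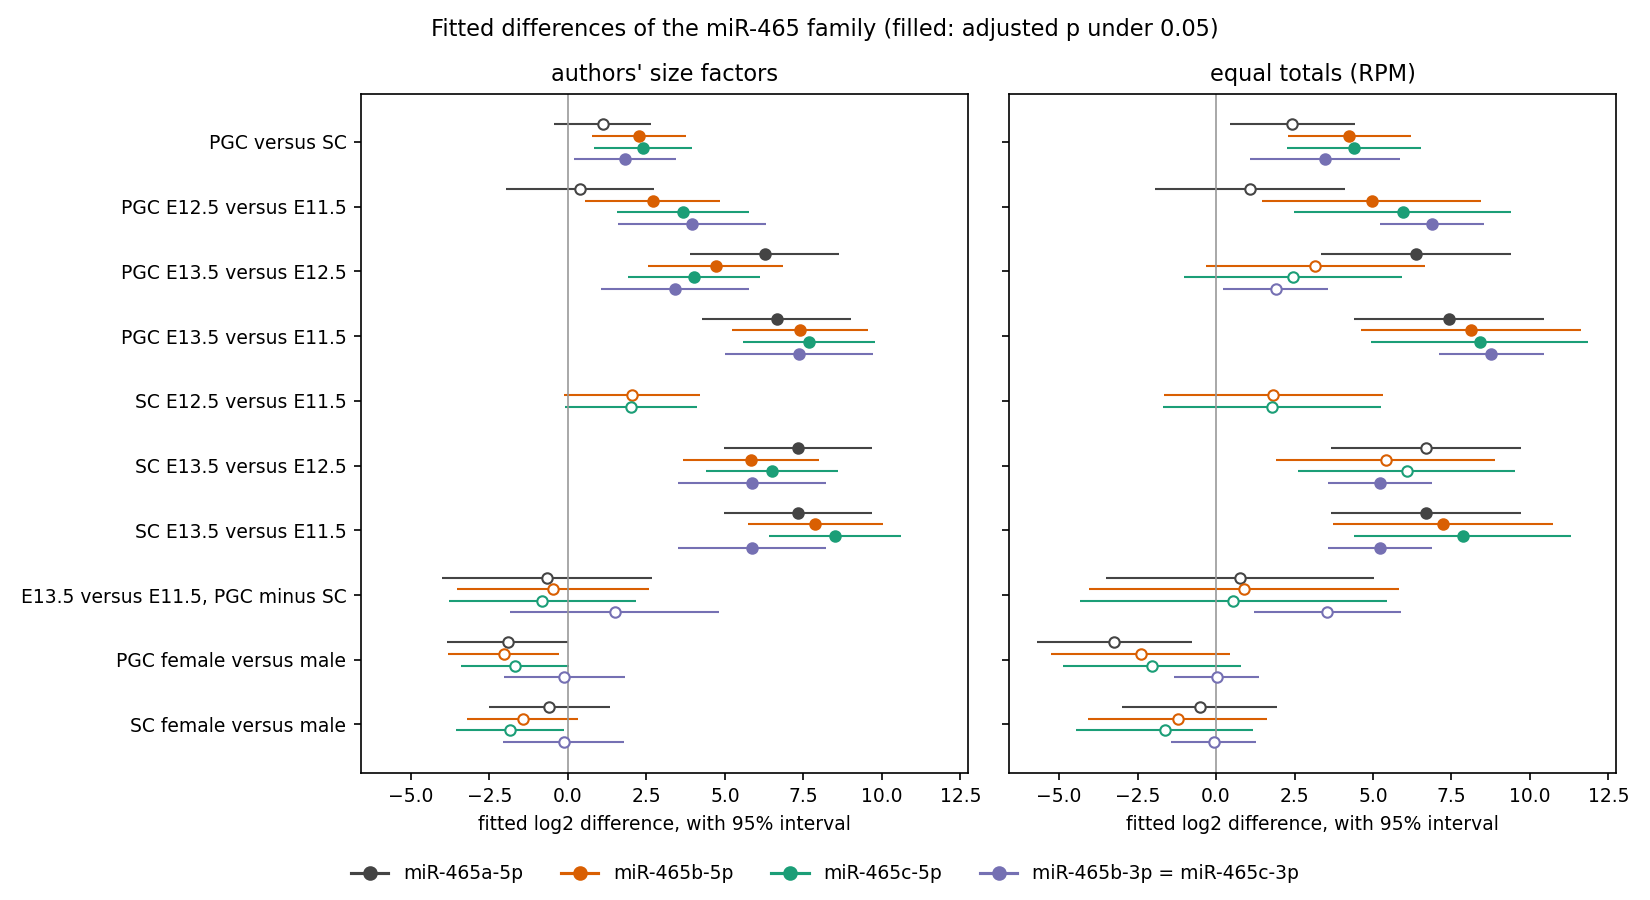
Fitted log2 differences with 95% intervals for each comparison, with the authors' size factors on the left and at equal totals on the right; filled points passed at an adjusted p under 0.05, and points are left out where both groups were at 0. The E13.5 versus E11.5 differences are filled for all 4 measurements in both cell types on both scales, and no sex difference is filled.

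In SCs all 4 measurements also rose from E11.5 to E13.5 on both scales, where 8.38% of all microRNAs rose with the size factors and 6.63% at equal totals. miR-465c-5p rose by 8.51 ± 1.05 (adjusted p = 5.57e-09), miR-465b-5p by 7.88 ± 1.08, miR-465a-5p by 7.33 ± 1.18 and miR-465b-3p by 5.87 ± 1.18. As every E11.5 SC value was 0, floors give the bounds: miR-465c-5p was at least 51.2-fold higher in RPM in females and at least 44.7-fold higher in males. With the size factors all 4 passed whichever library was left out. At equal totals 0 of 4 passed without the female E11.5, the male E11.5 or the male E13.5 SC library, 1 without the male E12.5 or the female E13.5 one, and 2 without the female E12.5 one.

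The step from E12.5 to E13.5 in SCs was tested next. There 4 of 4 rose with the size factors (7.6% of all microRNAs) and 1 of 4 at equal totals (0.39% of all), the shared 3p arm (miR-465b-3p), by 5.23 ± 0.70 (adjusted p = 0.039). The miR-465a-3p row of that arm did not pass at equal totals (4.24 ± 0.72, limma adjusted p = 0.092). At equal totals 0 passed without any 1 of the 6 SC libraries or of the 4 PGC libraries of E12.5 and E13.5, and 3 without either E11.5 PGC library. limma voom passed 0. Without the female E12.5 SC library the count with the size factors was 2. Between E11.5 and E12.5 limma passed 0 of 4 on either scale, where 3.31% of all microRNAs passed in either direction with the size factors and 0.975% at equal totals. miR-465a-5p and miR-465b-3p were at 0 in all 4 SC libraries of these days, so neither could pass. miR-465b-5p and miR-465c-5p were above 0 only in the male E12.5 library, at 16 and 15 reads. None of the 4 measurements had an unadjusted limma p under 0.05, and limma voom also passed 0. Germ-marker levels in the SC libraries moved with this: 178 to 349 RPM in the 4 libraries before E13.5, and 2435 RPM (female) and 3594 RPM (male) at E13.5.

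Whether the E11.5 to E13.5 change differed between PGCs and SCs was tested directly as a contrast of the same fit. None of the 4 passed, where 0.78% of all microRNAs passed in either direction with the size factors and 0% at equal totals. The differences of the changes, PGC minus SC, were -0.68 for miR-465a-5p, -0.48 for miR-465b-5p, -0.83 for miR-465c-5p and 1.49 for miR-465b-3p, with adjusted p from 0.643 to 0.896. For miR-465c-5p the 95% interval ran from -3.80 to 2.15. At equal totals the shared 3p arm (miR-465b-3p) had a difference of 3.55 ± 0.99 (unadjusted p = 0.00924, adjusted p = 0.113), the only one of the 4 with an unadjusted p under 0.05 there. With the size factors 0 had one, and voom passed 0.

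Female and male libraries were compared within each cell type over the 3 days. None of the 4 measurements passed in PGCs, where 0.39% of all microRNAs passed with the size factors and 0% at equal totals, and none passed in SCs, where the shares were 1.17% and 0%. limma voom passed 0 in both. Ties at 0 took up 2 of the 3 SC days for miR-465a-5p and miR-465b-3p, and 1 for miR-465b-5p and miR-465c-5p. Their SC comparisons thus rest on the remaining days. In PGCs the female minus male difference was -2.04 ± 0.88 for miR-465b-5p (unadjusted p = 0.0239, adjusted p = 0.446, lower in females on 3 of 3 days). It was -1.91 ± 0.97 for miR-465a-5p and -1.70 ± 0.86 for miR-465c-5p, also lower in females on 3 of 3 days, and -0.11 ± 0.96 for miR-465b-3p. These day counts are with the size factors. At equal totals miR-465c-5p was lower in females on 2 of 3 days and higher on 1. On each scale, 1 of the 3 days rests on the female E11.5 PGC library, whose markers go against its label. For miR-465a-5p that day sets 0 against 5 reads, the floor. Its E12.5 day sets 0, in the shallowest library of all, against 10 reads in the male one. Without the female E11.5 PGC library, where all are at 0, the miR-465b-5p difference was -0.85. At equal totals 1 of the 4 in PGCs had an unadjusted limma p under 0.05, miR-465a-5p (adjusted p = 0.268).

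At E13.5 alone, with 1 library a sex and so no test, the male PGC level in RPM was 1.22 times the female one for miR-465a-5p, 1.47 times for miR-465c-5p, 1.56 times for miR-465b-5p and 1.73 times for miR-465b-3p. In SCs of that day the ratios were 3.0, 2.53, 1.02 and 1.17 in the same order. In SCs 1 of the 4 had an unadjusted p under 0.05 with the size factors, miR-465c-5p (-1.85 ± 0.86, adjusted p = 0.541). At equal totals 0 of the 4 in SCs had an unadjusted p under 0.05.

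The forms made up different shares of the 5p reads. In the female E13.5 PGC library, of 1800 5p reads, miR-465a-5p made 13.3% (95% exact binomial interval 11.7 to 14.9%), miR-465b-5p 39.9% (37.6 to 42.2%) and miR-465c-5p 46.8% (44.5 to 49.2%). In the male library of that stage, of 2421, the shares were 10.9%, 42.3% and 46.8%. Per hairpin, counting 1 for the a form and 2 each for b and c, the female library had 239, 359 and 421.5 reads and the male one 265, 511.5 and 566.5. The order c, b, a per hairpin was thus the same in both E13.5 PGC libraries.

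In SCs the reads allowed the same split at E13.5. The female library, with 594, had 16.7% miR-465a-5p, 42.1% miR-465b-5p and 41.2% miR-465c-5p. The male one, with 718, stood apart with 25.3% miR-465a-5p (22.2 to 28.7%), 21.7% miR-465b-5p (18.8 to 24.9%) and 52.9% miR-465c-5p (49.2 to 56.6%). Its miR-465b-5p share lay below the interval of every other E13.5 library, and its miR-465a-5p share above. The female E12.5 PGC library, with 104 5p reads, listed 0 of miR-465a-5p, which means under 5 reads, and had 71.2% miR-465c-5p. Because miR-465b-5p and miR-465c-5p differ at 1 base, and no source used here states the mismatches allowed when reads were assigned, a small exchange of reads between them cannot be told apart from a difference in level. miR-465a-5p likewise differs at 1 base (C13U) from miR-465d-5p, which is not listed. Whether reads of miR-465d-5p were counted as miR-465a-5p was not tested.

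**Figure D4:**
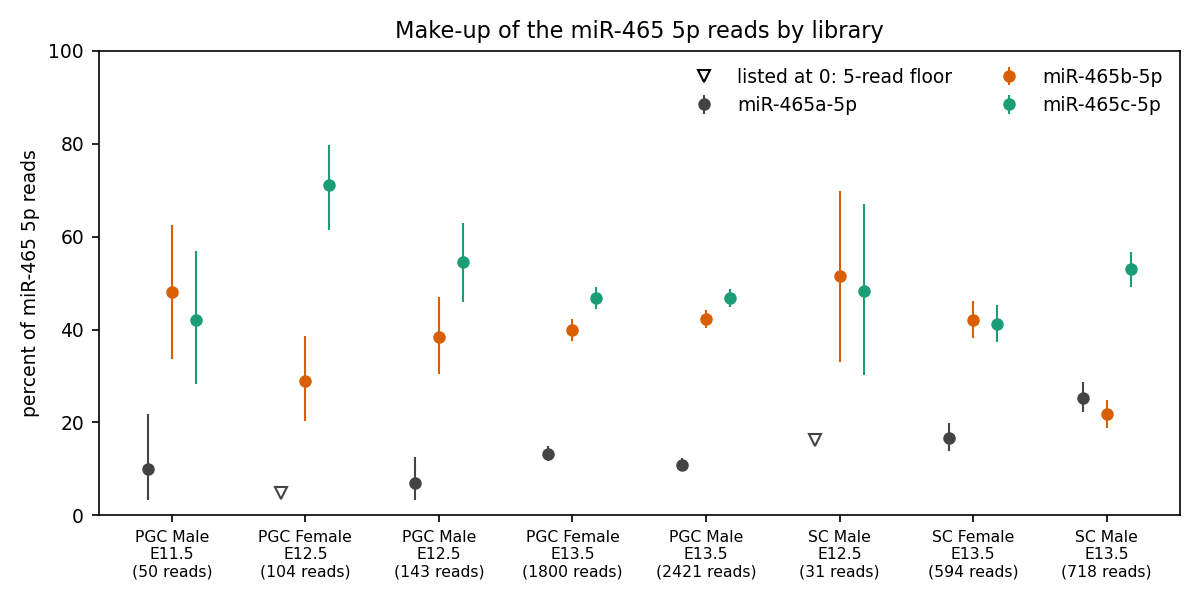
Share of each 5p form among the family's 5p reads in the 8 libraries that hold any, with exact 95% binomial intervals for counting error and the number of reads under each library; open triangles mark the 5-read floor where a form is listed at 0. The 2 PGC libraries at E13.5 have nearly the same make-up, and the male E13.5 SC library has the lowest miR-465b-5p share, 21.7%.

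The 5p arms outnumbered the shared 3p arm in each of the 6 libraries that hold both. The ratio of 5p to 3p reads, over all 6 rows, was 1.60 and 3.58 in the female and male PGC libraries at E12.5, 5.03 and 4.30 in those of E13.5, and 4.18 and 7.04 in the female and male SC libraries at E13.5. The lowest ratio was that of the shallowest library, on 104 and 65 reads. The ratio sets summed 5p reads of 3 sequences against 3p reads of 1, and capture of each sequence during library preparation was not measured.

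The level in SCs was set against that in PGCs of the same sex at E13.5. In females the SC level in RPM was 10.5% of the PGC level for miR-465a-5p, 8.85% for miR-465b-5p, 7.38% for miR-465c-5p and 10.1% for miR-465b-3p. In males it was 25.9%, 5.76%, 12.7% and 6.88% in the same order. These percents hold for RPM only, and with the size factors all 4 were larger in both sexes. On that scale miR-465a-5p was at 86.0 in SCs and 216 in PGCs in females, and at 296 and 244 in males. miR-465c-5p was at 213 and 763 in females, and at 619 and 1045 in males. The order against the germ markers is the same on either scale, as a size factor scales a whole library. The 5 germ markers above 0 in both libraries ran from 3.58 to 5.37% in females and from 4.21 to 6.26% in males. All 4 measurements lay above the highest germ marker in females, whereas in males 3 of 4 did and miR-465b-5p lay within their range. With 1 library of each kind there is no test of this difference. At E12.5 in males the 2 measurements above 0 in both fractions were at 3.88% (miR-465b-5p) and 2.57% (miR-465c-5p), and the germ markers at 0.422 to 0.613%.

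**Figure D5:**
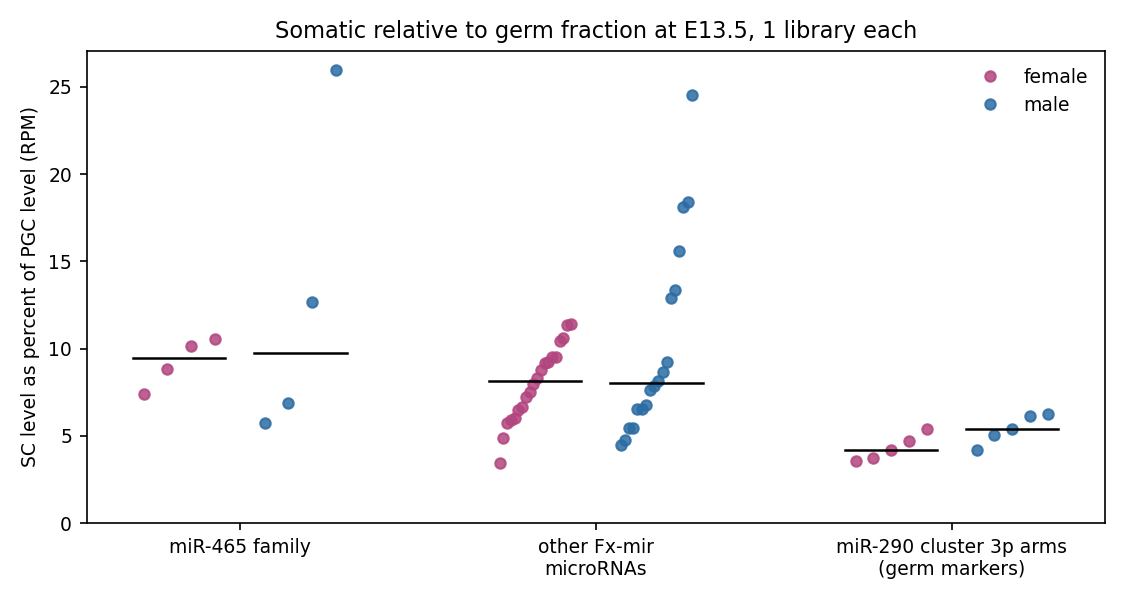
SC level as a percent of the PGC level in RPM at E13.5 by sex, with 1 point for each microRNA above 0 in both libraries and a bar at the median. Medians for the family are 9.49% in females and 9.78% in males, for other Fx-mir microRNAs 8.14 and 8.0%, and for the germ markers 4.18 and 5.37%.

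The other microRNAs of the Fx-mir cluster are listed in 25 rows, of which 20 passed the filter on low values, so counts over them leave out the weakest. The filter takes the mean over all 12 libraries, and some rows reached it through E13.5 only. For instance, miR-883b-5p, miR-471-3p and miR-743b-5p were at 0 in every earlier library. Counts of rises to E13.5 thus include rows let in by the stage where they are high. From E11.5 to E13.5 in PGCs 19 of the 20 rose on both scales, beside 7.8% of all microRNAs with the size factors and 7.41% at equal totals. In SCs 18 rose with the size factors (8.38% of all) and 13 at equal totals (6.63% of all). In PGCs against SCs 13 were higher and 1 lower on both scales. Of all microRNAs tested, 7.02% were higher with the size factors and 13.5% at equal totals, and 396 and 131 of the 513 were lower. The 4 with the highest mean level were miR-881-3p, miR-741-3p, miR-871-3p and miR-470-5p. miR-881-3p, the most abundant, was at 8362 and 8413 RPM in the female and male PGC libraries at E13.5, and at 798 and 569 RPM in those of SCs. In the same 4 libraries miR-741-3p was at 4074, 3373, 387 and 434 RPM, miR-871-3p at 4107, 3018, 308 and 246 RPM, and miR-470-5p at 1871, 2440, 110 and 380 RPM. From E11.5 to E13.5 in PGCs they rose by 6.04, 5.59, 6.74 and 6.04 (log2, in the order first named), beside 6.65 to 7.68 for the miR-465 measurements, and the difference between the lists was not tested.

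The one lower in PGCs was miR-547-3p, at 0 in all 6 PGC libraries and at 0, 0, 9, 16, 90 and 69 reads in SCs (female then male, by day), a difference of -3.43 ± 0.98 (adjusted p = 0.0038). miR-201-5p, which did not pass the filter and was chosen after its values were seen, was likewise at 0 in every PGC library, with 40 and 14 reads in the female and male SC libraries at E13.5. No miR-465 measurement had that pattern. As a share of all Fx-mir reads, the family made 8.67% in the male E11.5 PGC library, 23.4 and 20.7% a day later and 15.6 and 23.5% by E13.5 (female, then male). In SCs at E13.5 the shares were 15.4 and 24.4%, and in each sex the 95% intervals of the PGC and SC shares overlapped.

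The 5 microRNAs with the profile most like that of the family were all in the Fx-mir cluster. Over the 12 libraries and 329 candidates, Pearson's r with the family's summed level, both as log2(RPM + 1), was 0.996 for miR-743b-3p, 0.977 for miR-871-3p, 0.975 for miR-741-3p, 0.966 for miR-743a-3p and 0.964 for miR-871-5p. The first outside the cluster was miR-293-3p, a germ marker of the miR-290 cluster, at rank 11 with 0.872. These values describe the libraries: all candidates share the same library depths, and zeros in the E11.5 and early SC libraries are common to the low ones.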

How the data were processed

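Small RNA from 12 libraries was measured by sequencing. The submitters' processing notes name FastQC, Trim Galore, Bowtie 1.1.2, the GRCm38 build and DESeq. How reads were assigned to microRNAs, and with which annotation, is not given in the sources used. Each deposited value is a signal, counts divided by the authors' size factor for each library. All 100% of them were whole multiples (tolerance 1e-06) of the smallest value above 0 divided by 5, from which reads and RPM were recovered. Groups follow the labels.

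Tests used limma 3.58.1 (R 4.3.3), two-sided with a trended moderated variance, on log2(deposited value + 1) for 513 microRNAs with a mean deposited value of at least 5, adjusted by Benjamini-Hochberg over all 513, in 10 comparisons. PGC versus SC had the pair as a block (5 residual degrees of freedom), and the stage and sex fit had 4. With the size factors the stage and sex fit borrowed 54.3 prior degrees of freedom from all microRNAs, and at equal totals 2.92. In that fit with the size factors the moderated SD was 1.08 for miR-465b-5p, whose own was 1.55, and 1.05 for miR-465c-5p, whose own was 1.49. It was 1.18 for both miR-465a-5p and miR-465b-3p, whose own were 0.93 and 0.29. The p-values of the members there rest mostly on the spread of other microRNAs. The fit was tested on simulated data with size factors proportional to library totals. The authors' factors were not, so that test does not cover their scale.

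All members were named. Neighbours were named by the 4 highest mean levels and by a direction against the majority, and the most similar by the 5 highest r among microRNAs with a mean deposited value of at least 50. Members, lists and tests were chosen with earlier results of these data known. Alternatives were equal totals, a pseudocount of 5, no filter, no pair block, 1 cell type per fit and leaving out each library. limma voom on the recovered reads, and leaving out each library at equal totals, were added after seeing the data. RPM floors stand for 5 reads and intervals are at 95%, both for counting error only.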

Additional observations from a re-analysis of the deposited data

How the results depend on the processing

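Members passing, of 4, moved as follows. PGC versus SC went from 3 to 0 without the pair block, to 4 by voom and to 2 to 3 with a library left out. PGC E12.5 versus E11.5 went from 3 to 1 with the PGC libraries alone and to 0 to 3 with a library left out. PGC E13.5 versus E12.5 went from 4 to 1 at equal totals, to 0 with the PGC libraries alone, to 0 by voom and to 0 to 4 with a library left out. SC E13.5 versus E12.5 went from 4 to 1 at equal totals, to 0 by voom and to 2 to 4 with a library left out. With 1 choice changed at a time both E13.5 versus E11.5 counts stayed at 4, and the sex, SC E12.5 versus E11.5 and PGC minus SC counts at 0. With equal totals and a library left out together, the E13.5 versus E11.5 count was 2 to 4 in PGCs and 0 to 4 in SCs. In the fits of 1 cell type 8 (PGC) and 1 (SC) microRNAs had a variance of 0.

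Differences that changed sign had not passed. PGC minus SC went from -0.68 to 0.76 at equal totals and 0.059 at a pseudocount of 5 for miR-465a-5p (-1.98 to 0.63 with a library left out), from -0.48 to 0.89 and 0.54 for miR-465b-5p (-2.27 to 1.31), and from -0.83 to 0.55 and 0.19 for miR-465c-5p (-2.73 to 1.08). The PGC sex difference of miR-465b-3p was 0.017 at equal totals and -0.34 to 0.17 with a library left out. PGC E12.5 versus E11.5 of miR-465a-5p was -0.56 to 1.33 with a library left out. The cause was not tested. No paired analysis by replicate number was possible because each combination has 1 library. The planned edgeR test was not run, since the values are a normalized signal with no value under 5 reads.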
